A study of Mus musculus with 47 samples.

Results

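Ceacam10 and 3 related genes, Ceacam1, Ceacam2 and Ceacam20, were followed by their messenger RNA in small intestinal crypts and villi. Each probe set was included if its only gene symbol in the annotation of the Affymetrix mouse array was 1 of these 4 genes. The genes themselves were chosen on measured values, the levels of Ceacam10 on NWD2 against NWD1 and Ain76A in each tissue. They are 4 of 18194 genes with a probe set of their own and came to 13 of 45101 probe sets: 8 for Ceacam1, 1 for Ceacam2, 3 for Ceacam10 and 1 for Ceacam20. Another 2 probe sets that carry both the symbols Ceacam1 and Ceacam2 were left out. Values are normalized log2 levels, so a step of 1 stands for a doubling of signal.

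All mice were C57BL/6, and the 47 arrays fall into 12 groups. In the diet arm, wild-type mice 1 year old had been fed NWD2, NWD1 or Ain76A for 1 year from weaning. In the genetic arm, Apc1638N/+, p21-/- and wild-type mice 3 months old had all been fed Ain76A. Crypts and villi gave 4 arrays for each of these 6 conditions, except the villi of NWD2 mice, which gave 3. Ain76A is a purified control diet. NWD1 is a purified Western-style diet with more fat and less calcium and vitamin D, and NWD2 is the same diet with the calcium and vitamin D raised. Apc1638N/+ mice carry 1 truncated copy of the tumour suppressor Apc, and p21-/- mice lack the cell cycle inhibitor encoded by Cdkn1a. The labels do not say how crypts and villi were separated, or whether each replicate was a different animal. A p-value here thus reflects only how far these samples spread, which may be technical.

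Ceacam proteins belong to the immunoglobulin superfamily and sit on, or are released from, the surface of epithelial and blood cells. Ceacam1 is a membrane receptor that binds its like on neighbouring cells and signals through inhibitory tyrosine motifs, which recruit the phosphatases encoded by Ptpn6 and Ptpn11. In mice it is also the receptor of the mouse hepatitis virus, and Ceacam2 is its close relative. Ceacam10 is a mouse protein made only of immunoglobulin domains, without a membrane anchor, and is secreted. Ceacam20 is a membrane protein of the microvilli of intestinal epithelial cells, and its tail carries an activating tyrosine motif.

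In RefSeq (GRCm38.p6) the 4 genes all lie on chromosome 7. Ceacam1 and Ceacam2 are next to each other, whereas Ceacam10 lies between Cd177 and Lypd4 and Ceacam20 between Igsf23 and Nlrp9b. Promoter windows of 300 bases around a gene's start are shown for Ceacam10 and Ceacam1 because the windows are nearly the same in sequence while the log2 differences of the 2 genes between diets, given below, are of unlike size. The window of Ceacam20 is shown for contrast. The windows lie at chr7:24776917-24777216 on the plus strand for Ceacam10, at chr7:25477576-25477875 on the minus strand for Ceacam1 and at chr7:19965162-19965461 on the plus strand for Ceacam20. Capitals mark CACGTG, the E-box, which reads the same on both strands and was the only motif searched here besides TTTATG.
Ceacam10: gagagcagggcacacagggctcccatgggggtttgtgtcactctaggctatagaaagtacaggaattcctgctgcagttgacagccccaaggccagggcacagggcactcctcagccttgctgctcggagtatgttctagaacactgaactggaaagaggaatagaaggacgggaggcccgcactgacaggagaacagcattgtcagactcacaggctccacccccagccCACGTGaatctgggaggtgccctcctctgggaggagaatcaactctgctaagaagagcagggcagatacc
Ceacam1: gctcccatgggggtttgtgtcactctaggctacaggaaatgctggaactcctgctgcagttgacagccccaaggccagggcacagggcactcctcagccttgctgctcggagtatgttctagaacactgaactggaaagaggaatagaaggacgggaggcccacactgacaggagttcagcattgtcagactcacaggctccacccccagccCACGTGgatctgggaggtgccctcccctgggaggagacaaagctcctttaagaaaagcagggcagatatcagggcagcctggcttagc
Ceacam20: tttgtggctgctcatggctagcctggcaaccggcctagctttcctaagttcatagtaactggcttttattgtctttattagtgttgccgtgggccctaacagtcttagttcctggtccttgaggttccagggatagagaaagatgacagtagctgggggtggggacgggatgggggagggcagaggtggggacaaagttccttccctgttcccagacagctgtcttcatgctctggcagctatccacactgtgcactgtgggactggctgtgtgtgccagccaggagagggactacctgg

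In a local alignment, 261 of 280 aligned positions (93.2%) were identical between the Ceacam10 and Ceacam1 windows. The Ceacam2 window aligned with that of Ceacam10 over 147 positions, 85.7% of them identical. No alignment of the Ceacam20 window with another member ran past 30 positions. CACGTG occurred 1 time in the Ceacam10 and 1 time in the Ceacam1 window and 0 times in those of Ceacam2 and Ceacam20. Of the 32851 promoter windows of this length, 7.2% hold CACGTG. The other motif, TTTATG, was searched on both strands, is held by 11.9% of windows and occurred 1 time in the Ceacam2 window and 0 times in the other 3. A match is a string of letters in this window and not a measured binding site.

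Of the 13 probe sets, 10 lay above the median of their array on at least 3 arrays and entered the tests: 2 of Ceacam10, 7 of Ceacam1 and the single one of Ceacam20. The third Ceacam10 probe set, 1436565_at, was blank on every array. Ceacam2 had a value on 8 of 47 arrays, all between 6.20 and 8.06, with at most 2 in any group, so no comparison was made for it. The Ceacam1 probe set 1427712_at had values on 19 arrays, 17 of them in the diet arm, and also stayed below the filter. The deposited table leaves a cell blank without giving a reason, and a blank was not read as 0.

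Arrays differed in depth and tissue content. Measured probe sets numbered 14758 to 23296 per array. A crypt-villus score was the mean of genes higher in crypts minus that of genes higher in villi. For arrays of the genetic arm these genes came from the Ain76A mice, and for arrays of the diet arm from the wild-type mice of 3 months. Scores of the arms thus rest on different gene sets. The score placed wild-type crypt arrays 2 and 4 between the tissues, at 0.10 and 0.34, against 2.27 and 1.25 for arrays 1 and 3. NWD2 crypts scored 1.10 to 2.35 and Ain76A crypts 2.33 to 3.08. Villus arrays 1 and 2 of NWD1 mice scored −0.40 and −0.37 and villus array 1 of NWD2 mice 0.32, against −2.39 to −1.77 in Ain76A villi. In the check of the deleted gene, 1 Cdkn1a probe set was blank on the 8 p21-/- arrays and had a value on every other array, while a second had values on all 47.

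Ceacam10 was the member with the lowest levels on NWD2 relative to the other diets. In crypts, probe set 1417074_at read 9.75, 7.47, 7.44 and 7.52 on the 4 NWD2 arrays, against 11.32, 12.26, 11.42 and 12.52 on the NWD1 arrays. On the Ain76A crypt arrays it read 8.85, 10.09, 12.20 and 12.19. Every NWD2 crypt array lay below every NWD1 crypt array, but NWD2 array 1 stood apart from its group and lay above Ain76A array 1.

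In villi, the same probe set read 7.65, 8.57 and 8.22 on the NWD2 arrays, against 10.75, 11.15, 10.58 and 10.70 on NWD1. On the Ain76A villus arrays it read 8.67, 8.88, 10.57 and 11.29. All 3 NWD2 villus arrays lay below all NWD1 and Ain76A villus arrays, by little in the case of Ain76A arrays 1 and 2.

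**Figure D1:**
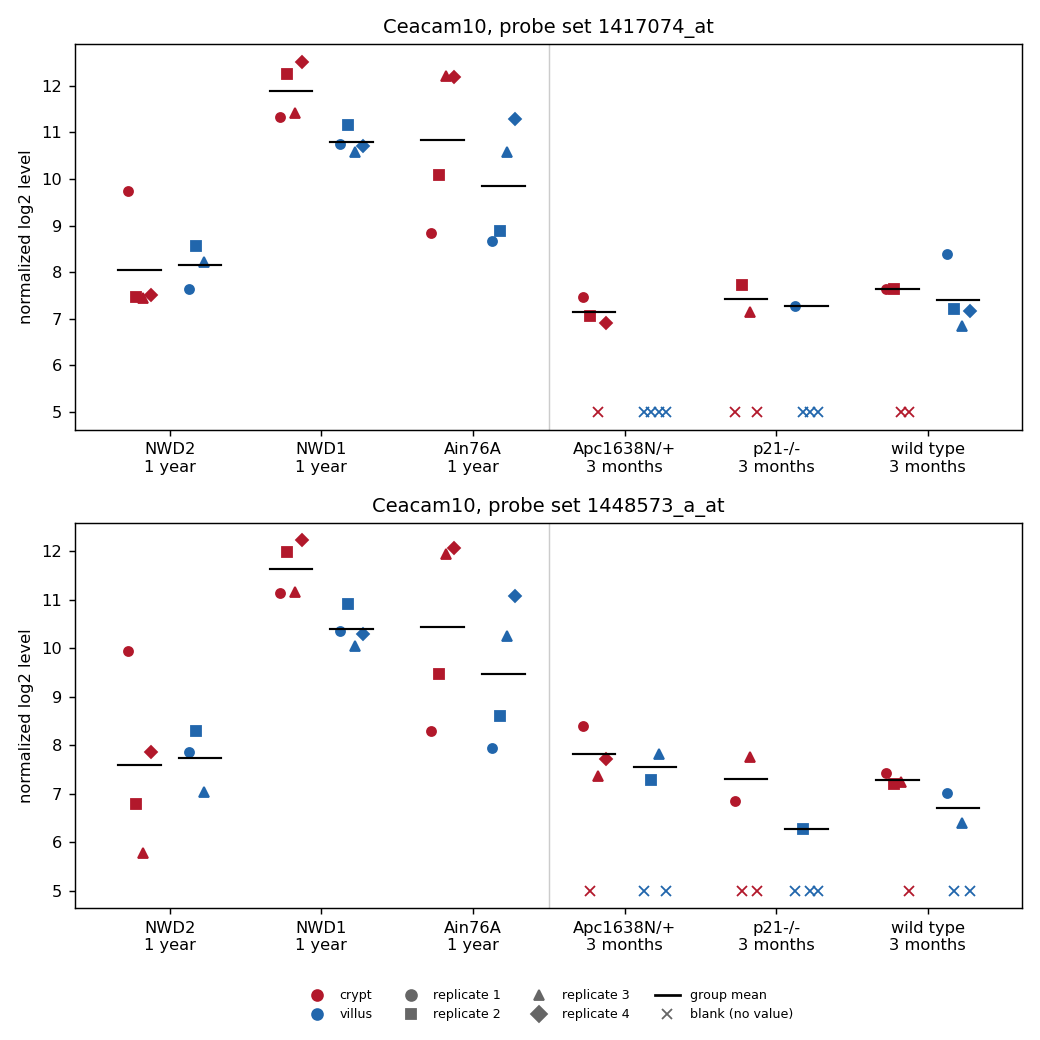
Normalized log2 level (vertical axis) of the 2 measured Ceacam10 probe sets on each array, by condition, with crypts in red to the left and villi in blue to the right. Marker shape gives the replicate number, bars are group means of the arrays with a value, and crosses at the bottom mark blank arrays. NWD2 arrays sit at 5.78 to 9.94 and NWD1 arrays at 10.04 to 12.52, and the genetic arm holds blanks or values no higher than 8.40.

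These NWD2 contrasts were in view when the members were chosen, so they are given as a description without a test. In crypts the level of 1417074_at averaged 8.04 ± 1.14 on NWD2, 11.88 ± 0.60 on NWD1 and 10.83 ± 1.65 on Ain76A (SD, n = 4 each). The log2 difference of NWD2 from NWD1 was −3.83 ± 0.59 (SE), a 14.3-fold lower level, and that from Ain76A was −2.79 ± 0.59. In villi it averaged 8.15 ± 0.46 on NWD2 (SD, n = 3), against 10.80 ± 0.24 on NWD1 and 9.85 ± 1.28 on Ain76A (n = 4 each). The log2 differences there were −2.65 ± 0.64 from NWD1 and −1.71 ± 0.64 from Ain76A. The contrasts share the NWD2 arrays and are not independent of each other. In bulk tissue, fewer cells that express a gene and less RNA per cell cannot be told apart.

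The second Ceacam10 probe set, 1448573_a_at, followed the first. It read 9.94, 6.78, 5.78 and 7.87 on NWD2 crypts, against 11.13, 11.99, 11.15 and 12.23 on NWD1 crypts and 8.30, 9.46, 11.95 and 12.07 on Ain76A crypts. In villi it read 7.85, 8.30 and 7.04 on NWD2, against 10.36, 10.92, 10.04 and 10.29 on NWD1 and 7.94, 8.60, 10.26 and 11.08 on Ain76A. The array with the high NWD2 crypt value and the low Ain76A arrays were the same for both probe sets. The log2 difference of NWD2 from NWD1 was −4.03 ± 0.71 in crypts and −2.68 ± 0.77 in villi (SE).

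Of the 10 members in this comparison, 2 lay lower on every NWD2 crypt array than on every NWD1 crypt array, both of them Ceacam10 probe sets, where 3.87% of all 14027 probe sets did. In villi 3 of 10 did, the third being Ceacam1 1450494_x_at, against 2.58% of all. Against Ain76A, 0 of 10 members did in crypts and 2 of 10 in villi, where 16.1% and 13.5% of all probe sets did. These counts describe how the members were chosen.

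NWD2 crypt array 1, the one with the high Ceacam10 level, also had the highest crypt-villus score of its group (2.35, others 1.10 to 1.68) and the lowest mean of the enterocyte list (13.39, others 13.97 to 14.45), taken over the 17 of its 20 genes measured on every array. Adjusted for this score, the log2 difference of NWD2 from NWD1 was −3.73 in crypts and −2.70 in villi, and that from Ain76A was −2.64 and −1.89. Without NWD2 crypt array 1 the crypt differences were −4.40 from NWD1 and −3.36 from Ain76A.

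The Ain76A arrays did not form a tight group for Ceacam10. Arrays 1 and 2 were low and arrays 3 and 4 high in crypts and in villi alike. The labels do not state that equal numbers are the same animal, but in this condition all 4 crypt arrays resembled the villus array of their number in their deviations from the group means (correlations 0.11 to 0.29 across probe sets). The villus arrays split in the same way on the Paneth list, of which 2 of 8 genes, Lyz1 and Defa39, had values on every array: their mean was 11.13 and 10.67 on arrays 1 and 2 and 12.98 and 12.98 on arrays 3 and 4. In crypts that mean was 15.80, 15.55, 16.04 and 15.80. NWD2 crypts had Paneth means of 14.80 to 15.46 and NWD2 villi of 12.28 to 13.05. Over its tested genes the list's median log2 difference of NWD2 was −0.97 from NWD1 and −0.77 from Ain76A in crypts, and −1.69 and 0.54 in villi. The part of this list in the result was not tested.

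**Figure D2:**
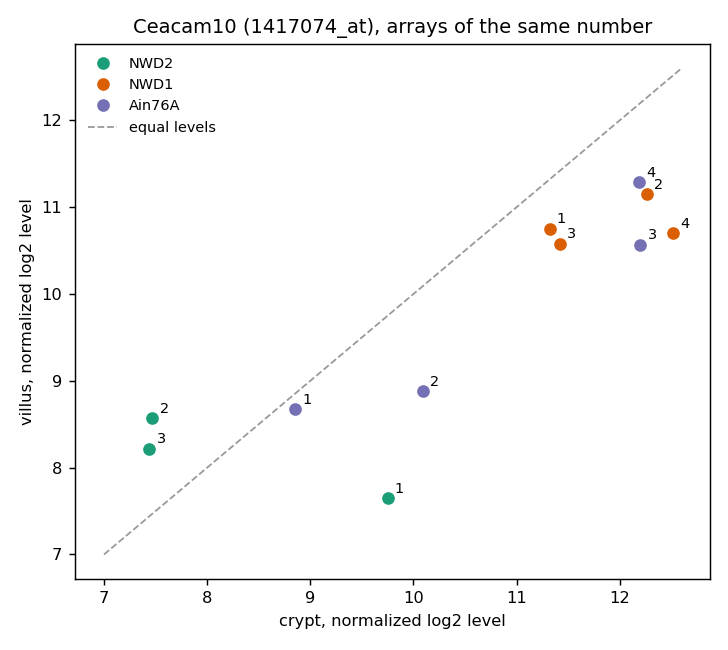
Ceacam10 level (1417074_at, normalized log2) on each crypt array of the diet arm (horizontal axis) against the villus array of the same number (vertical axis), coloured by diet and labelled with the number. Ain76A arrays run from 8.85 in crypts and 8.67 in villi (array 1) to about the NWD1 levels (arrays 3 and 4), NWD1 arrays all lie below the line of equal levels, and NWD2 array 1 lies below it while 2 and 3 lie above.

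NWD1 was compared with Ain76A, a contrast that was not named in the choice of members, although it shares arrays with those that were. The per-array levels of Ceacam10 are those given above, and the groups overlapped in both tissues. The log2 difference of 1417074_at was 1.04 ± 0.59 in crypts (limma adjusted p = 1) and 0.94 ± 0.59 in villi (limma adjusted p = 0.999). Without Ain76A crypt array 3 the crypt difference was 1.50, and without Ain76A crypt array 1 it was 0.38. The villus difference was 0.55 without Ain76A villus array 1 and 1.42 without array 4. None of the 10 members passed in either tissue. Over all probe sets limma called 0% in crypts, with 441 of 13922 at an unadjusted p under 0.05, and 0.0647% in villi. The 7 Ceacam1 probe sets differed by −0.27 to 0.03 in crypts and by −0.20 to 0.09 in villi, and Ceacam20 by 0.20 ± 0.39 and −0.51 ± 0.39. The Paneth list had 3 of 5 tested genes higher in NWD1 villi, where its 2-gene mean was 15.48, 15.18, 13.66 and 13.30.

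In the genetic arm Ceacam10 was at the lower end of the scale or blank. Probe set 1417074_at had values on 12 of 24 arrays there, between 6.84 and 8.40, and on 23 of 23 arrays of the diet arm. In crypts it read 7.46, 7.05 and 6.92 on 3 Apc1638N/+ arrays, 7.72 and 7.14 on 2 p21-/- arrays and 7.64 and 7.64 on 2 wild-type arrays. In villi it was blank on all 4 Apc1638N/+ arrays and on 3 of 4 p21-/- arrays, the other reading 7.27. Wild-type villi read 8.40, 7.22, 6.84 and 7.16. The levels of the genotypes lay within the same narrow range, and NWD2 arrays other than crypt array 1 lay within or just above it.

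No member passed the test for Apc1638N/+ or p21-/- against wild type in either tissue. In crypts limma called 0 of 9 members for Apc1638N/+ and 0 of 7 for p21-/-, where 0.0957% and 4.25% of all probe sets passed. In villi it called 0 of 8 for each, where 0% and 0.0390% passed. At an unadjusted p under 0.05, 656 of 12854 probe sets passed for Apc1638N/+ villi. Ceacam20 differed from wild type by −0.26 ± 0.39 in Apc1638N/+ crypts and by −0.65 ± 0.39 in p21-/- crypts (limma adjusted p = 0.821 and 0.373), and the first of these ran from −0.61 to 0.11 with 1 array left out. The lowest difference was that of Ceacam1 1427630_x_at in p21-/- villi, −1.80 ± 0.72 (limma adjusted p = 0.33), with 1425538_x_at at −1.58 ± 0.67 (limma adjusted p = 0.362). In Apc1638N/+ crypts 1425538_x_at differed by 1.31 ± 0.67 (limma adjusted p = 0.393). Ceacam10 could be tested only in Apc1638N/+ crypts, through 1448573_a_at, at 0.54 ± 0.82 (limma adjusted p = 0.822). Leaving out p21-/- villus array 1 gave 2 calls in p21-/- villi, both lower.

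The 1-year Ain76A mice were set against the 3-month wild-type mice, which ate the same diet. Age coincides here with the arm of the study, so the 2 cannot be told apart. Several Ceacam1 probe sets rose in the 1-year mice. Ceacam10 is given here as a description, with no test, because the Ain76A levels were in view when it was chosen and it passed the filter on low values through the diet arm alone. In villi, 1417074_at averaged 9.85 ± 1.28 at 1 year and 7.40 ± 0.68 at 3 months (SD, n = 4 each), a log2 difference of 2.45 ± 0.59. In crypts this probe set had too few 3-month values. There 1448573_a_at read 8.30, 9.46, 11.95 and 12.07 at 1 year, against 7.43, 7.19 and 7.24 and a blank at 3 months, a log2 difference of 3.16 ± 0.77.

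In crypts 5 of 7 Ceacam1 probe sets rose, where 9.29% of all probe sets did. In villi 4 of 7 rose, where 7.38% did. These probe sets are listed under 1 gene and were read on the same arrays, so they are not replicates of each other. In crypts 1460681_at did not rise and differed by −0.36 ± 0.31 (limma adjusted p = 0.43). No Ceacam1 probe set was called lower, and Ceacam20 was not called in either tissue, where 6.67% of all probe sets in crypts and 8.74% in villi fell. Ceacam1 1425675_s_at gave 13.37, 13.64, 13.97 and 14.38 in 1-year villi, against 12.49, 12.23, 11.98 and 11.71 in 3-month villi, a difference of 1.74 ± 0.30 (limma adjusted p = 0.000292). These groups did not overlap. The leading Ceacam1 probe set, 1425538_x_at, differed by 0.27 ± 0.67 in villi (limma adjusted p = 0.822). Ceacam20 differed by −1.04 ± 0.39 in crypts (limma adjusted p = 0.063) and −0.20 ± 0.39 in villi (limma adjusted p = 0.763). The crypt difference was called without wild-type crypt array 1 (−1.39, limma adjusted p = 0.0111) and without Ain76A crypt array 3 (−1.30, limma adjusted p = 0.0407).

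Cell type lists moved with the same comparison. In 1-year villi 9 of 9 tested lymphocyte genes fell, with a median log2 difference of −2.63, as did 6 of 9 enteroendocrine genes. Of 18 enterocyte genes there, 5 rose and 1 fell. In 1-year crypts 9 of 17 enterocyte and 3 of 7 goblet genes fell, whereas 5 of 8 enteroendocrine and 3 of 16 cell cycle genes rose. The part of these lists in the result was not tested.

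The crypt count rested on few arrays. Counted over all members, limma made 6 calls in crypts, 5 of them Ceacam1 probe sets, and 5 in villi, 4 of them Ceacam1. In each tissue the remaining call was a Ceacam10 probe set, which counts as no test for the reason given above. The counts that follow still include Ceacam10 where it had enough values. The crypt count was 1 without wild-type crypt array 2, 1 without array 3, 3 without Ain76A crypt array 4 and 1 without wild-type crypt arrays 2 and 4 together. Fewer members could be tested without wild-type crypt array 2 (8, against 9) or array 3 (6), and the Ceacam10 probe set was not tested in either. Of the Ceacam1 probe sets still tested, 1425538_x_at differed by 1.64 without array 3 (limma adjusted p = 0.118) and 1450494_x_at by 1.90 (limma adjusted p = 0.0562). Adjusted for the crypt-villus score the crypt count was 0. That score rests on different genes in each arm, so this fit cannot separate tissue content from study arm. The villus count was 3 without wild-type villus array 3 or without Ain76A villus array 4, and 1 after adjustment for spike-in level.

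Crypts were next compared with villi within each condition. Ceacam20 was lower in crypts in all 6 conditions. On NWD2 it read 10.77, 11.69, 12.13 and 11.36 in crypts, against 12.73, 13.49 and 13.60 in villi. On NWD1 it read 10.40, 10.92, 10.93 and 9.60 in crypts, against 13.29, 13.53, 13.91 and 14.06 in villi. On Ain76A it read 9.63, 10.46, 11.02 and 9.92 in crypts, against 14.31, 14.39, 13.85 and 14.29 in villi. The tissues did not overlap in any of these, and the gap was narrowest on NWD2, a difference between diets that was not tested because the NWD2 levels chose the members.

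The genetic arm gave the same order. Ceacam20 read 9.94, 11.39, 11.73 and 11.12 in Apc1638N/+ crypts, against 13.89, 13.77, 14.83 and 13.30 in villi. It read 11.05, 10.85, 10.75 and 9.94 in p21-/- crypts, against 14.95, 14.67, 13.16 and 14.54 in villi. In wild-type mice it read 10.25, 11.09, 11.77 and 12.10 in crypts, against 14.61, 13.98, 14.55 and 14.53 in villi. Again every crypt array lay below every villus array of its condition.

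**Figure D3:**
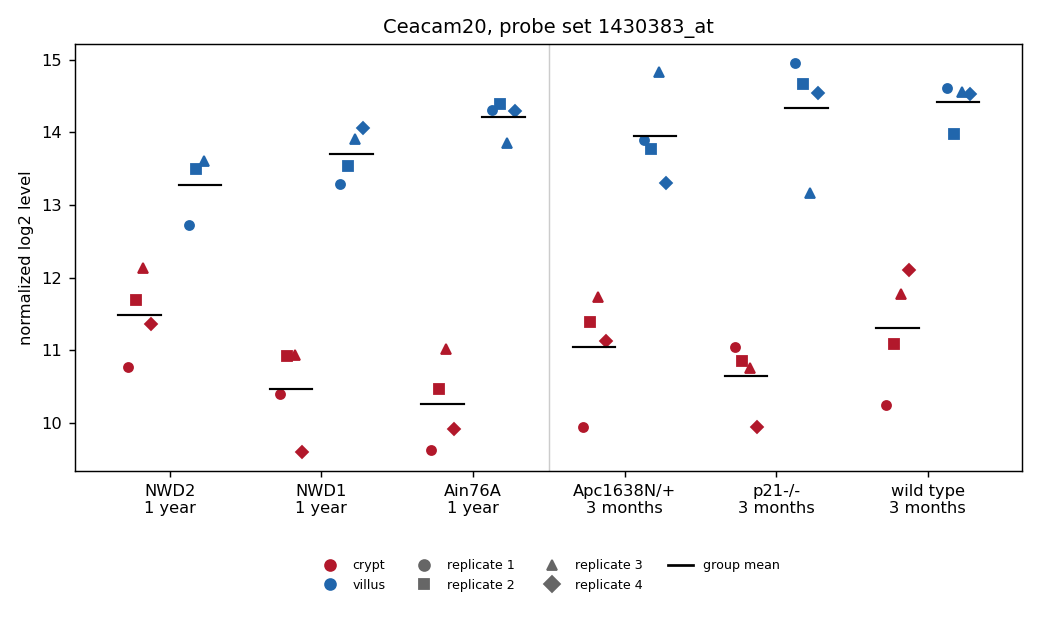
Normalized log2 level of Ceacam20 (1430383_at, vertical axis) on each array by condition, crypts in red to the left and villi in blue to the right, with group means as bars. Crypt arrays span 9.60 to 12.13 and villus arrays 12.73 to 14.95, so the tissues do not overlap over all 47 arrays.

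The log2 differences of Ceacam20, crypt over villus, were −1.78 ± 0.43 on NWD2, −3.24 ± 0.39 on NWD1 and −3.95 ± 0.39 on Ain76A (SE; limma adjusted p = 0.00407, 8.01e-08 and 2.04e-10). They were −2.90 ± 0.39 in Apc1638N/+, −3.68 ± 0.39 in p21-/- and −3.11 ± 0.39 in wild-type mice (limma adjusted p = 4.37e-07, 2.66e-09 and 7.25e-08). By group mean, the order of the villi was wild type 14.41, p21-/- 14.33, Ain76A 14.21, Apc1638N/+ 13.95, NWD1 13.70 and NWD2 13.27. Neighbours in that order overlapped, and their SDs ran from 0.24 to 0.80. The crypt means ran from 10.26 on Ain76A to 11.49 on NWD2. Without NWD2 villus array 3 the NWD2 difference was −1.62 and missed the threshold (limma adjusted p = 0.055).

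As a description, Ceacam20 on NWD2 differed from Ain76A by 1.23 ± 0.39 in crypts and by −0.94 ± 0.43 in villi, and from NWD1 by 1.02 ± 0.39 and −0.43 ± 0.43 (log2 ± SE). Values of the crypt-villus score moved with it, as given above. Adjusted for it, the differences from Ain76A were 0.76 and −0.37.

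Ceacam1 was lower in crypts than in villi in part of its probe sets. Members called lower numbered 3 of 10 on NWD2, 5 of 10 on NWD1 and 5 of 10 on Ain76A, with 0 higher, where 6.79%, 24.6% and 30.2% of all probe sets were lower. They numbered 1 of 8 in Apc1638N/+, 2 of 7 in p21-/- and 4 of 8 in wild-type mice, where 21% (2545 of 12113), 22.1% and 28.0% of probe sets were lower. The shares higher in crypts were 8.78%, 22.3% and 26.6% on the diets and 21.2%, 23.5% and 20.3% in the genetic arm, in the same order. Ceacam20 was 1 of the called members in each, and the rest were probe sets listed under Ceacam1. In wild-type mice these were 1425538_x_at (−2.90), 1427630_x_at (−2.99) and 1450494_x_at (−2.37), whose x_at type may detect more than 1 gene. The members' median log2 difference was −1.10 on NWD2, −1.25 on NWD1 and −1.29 on Ain76A, beside −0.09, −0.08 and −0.10 over all probe sets tested. It was −1.15 in Apc1638N/+, −0.96 in p21-/- and −1.74 in wild-type mice, beside −0.03, −0.01 and −0.14 over all.

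**Figure D4:**
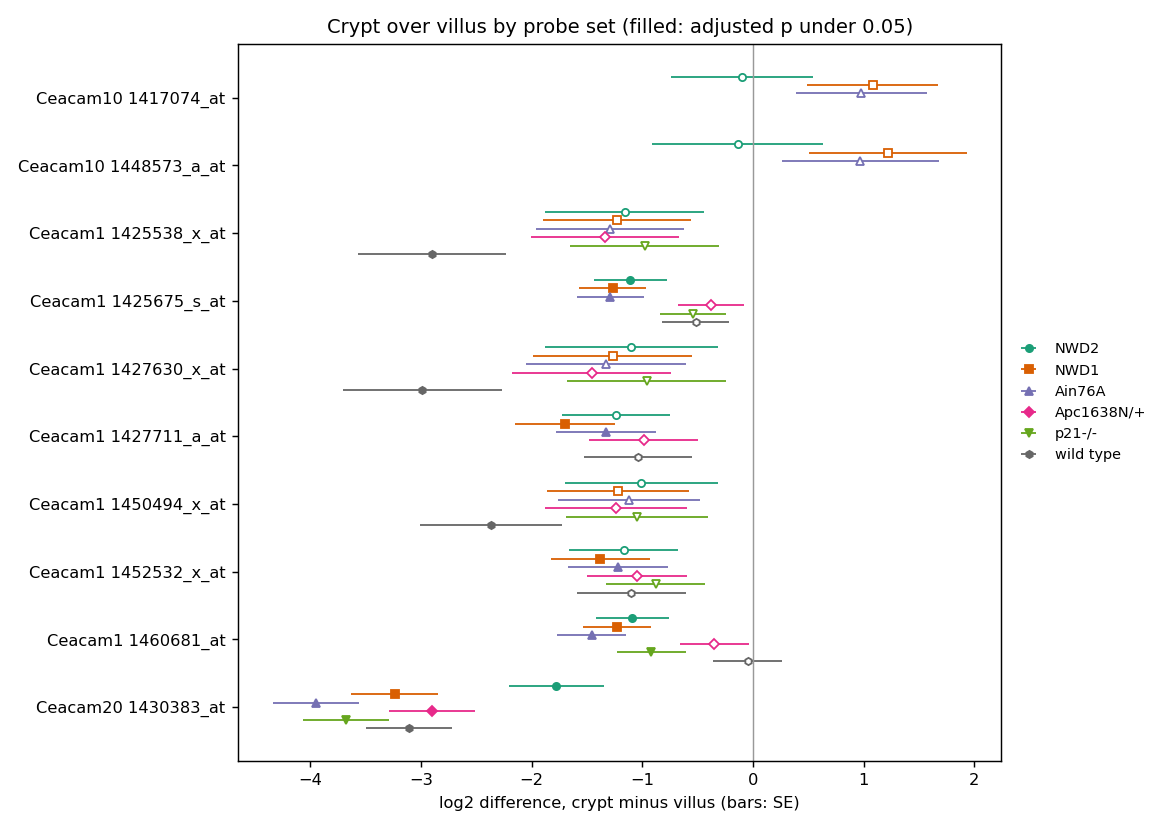
Log2 difference, crypt minus villus, for the 10 tested member probe sets (rows) in the 6 conditions (colours and shapes), with bars for the SE. Filled markers passed an adjusted p under 0.05 in limma. Ceacam20 lies between −3.95 and −1.78 in every condition, the Ceacam1 probe sets between −2.99 and −0.05, and the 2 Ceacam10 probe sets between −0.14 and 1.22.

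Ceacam1 1460681_at gave 11.71, 11.46, 12.43 and 12.53 in Ain76A crypts, against 13.00, 13.15, 13.53 and 14.28 in villi, with no overlap. Its log2 difference was −1.46 ± 0.31 on Ain76A (limma adjusted p = 9.8e-05), −1.23 ± 0.31 on NWD1 (limma adjusted p = 0.00114) and −1.09 ± 0.33 on NWD2 (limma adjusted p = 0.0205). It was −0.05 ± 0.31 in 3-month wild-type mice (limma adjusted p = 0.898). The difference between 1-year Ain76A and 3-month wild-type mice in this tissue gap was −1.41 ± 0.43 (limma adjusted p = 0.032), the only one of 8 members called, where 10.8% of 12248 probe sets passed. Some other Ceacam1 probe sets had the opposite sign and were not called: 1.61 ± 0.95 for 1425538_x_at (limma adjusted p = 0.272), 1.65 ± 1.02 for 1427630_x_at (0.293) and 1.25 ± 0.90 for 1450494_x_at (0.377). The remaining ones, 1425675_s_at, 1427711_a_at and 1452532_x_at, had the sign of 1460681_at and were not called either. The difference of 1460681_at was not called without wild-type crypt array 3, wild-type villus array 3 or 4, Ain76A crypt array 1 or 2, or Ain76A villus array 4. No other tissue difference between arms passed for a member: 0 of 8 for Apc1638N/+ and 0 of 7 for p21-/- against wild type, and 0 of 10 for NWD1 against Ain76A, where 0%, 1.50% and 0% of all probe sets did. At an unadjusted p under 0.05, 808 of 11559 and 335 of 13279 probe sets passed in the comparisons with 0%.

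On Ain76A and NWD2 the array numbers paired crypts with villi by the measure used, and a fit with the replicate number as a block raised the counts. On Ain76A all 10 members were then called, 8 lower and the 2 Ceacam10 probe sets higher in crypts, where 38.3% of all probe sets were lower and 32.4% higher. Ceacam10 1417074_at was higher in Ain76A crypts than in villi of the same number by 0.18, 1.21, 1.63 and 0.90. The blocked log2 difference was 0.98 ± 0.21 (SE). The levels on these diets were in view when Ceacam10 was chosen. Its calls between tissues on the diets are thus a description and count as no test. On NWD1, where the numbers did not meet the measure for pairing, the difference was 1.08 ± 0.59 (SE), and all 4 crypt arrays lay above all 4 villus arrays.

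On NWD2 the block gave 7 called members, all lower in crypts, where 19.2% of all probe sets were lower and 15.8% higher. They were Ceacam20 and 6 of 7 Ceacam1 probe sets. Ceacam10 1417074_at had a crypt minus villus difference of 2.10, −1.10 and −0.78 in the 3 NWD2 pairs, with a blocked log2 difference of 0.07 ± 0.63 (SE). The pairs thus did not go one way.

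The Ceacam1 probe sets parted from each other in the genetic arm. Probe set 1425538_x_at read 13.31, 10.32, 13.56 and 11.11 in p21-/- crypts and 15.33, 11.81, 13.47 and 11.60 in p21-/- villi. Arrays 2 and 4 were low and arrays 1 and 3 high in both tissues. In wild-type crypts it read 13.00, 9.37, 11.04 and 13.54. In wild-type villi it lay between 14.51 and 14.84.

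Probe set 1460681_at did not show these steps. It read 11.59, 11.66, 11.16 and 12.48 in p21-/- crypts, 12.42, 12.82, 12.81 and 12.51 in p21-/- villi and 12.78, 11.87, 12.73 and 12.20 in wild-type crypts. Over the 24 arrays of the genetic arm its range was 2.01, against 5.96 for 1425538_x_at, 5.92 for 1427630_x_at and 5.31 for 1450494_x_at. In the diet arm the 4 ranges were 2.84, 2.56, 2.70 and 2.61 in the same order. The other tested Ceacam1 probe sets had ranges in the genetic arm between these extremes. They were 3.64 for 1452532_x_at (23 arrays), 3.59 for 1427711_a_at (20 arrays) and 2.41 for 1425675_s_at. By the platform's naming, x_at probe sets may hybridize to transcripts of more than 1 gene, and their levels cannot be assigned to Ceacam1 alone. The part of cross-hybridization in the result was not tested.

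**Figure D5:**
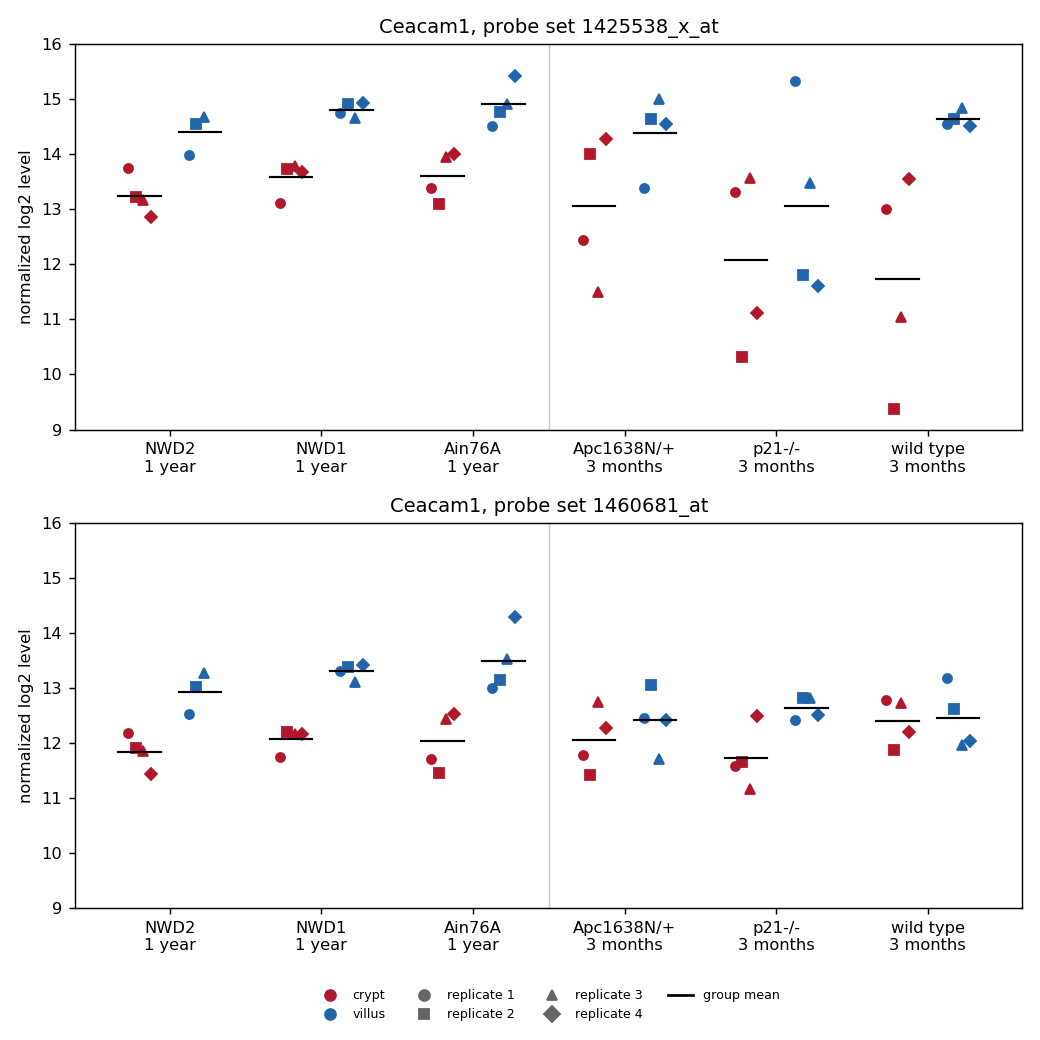
Normalized log2 level of 2 Ceacam1 probe sets on each array by condition, crypts in red to the left and villi in blue to the right, on the same vertical scale. For 1425538_x_at the p21-/- arrays 2 and 4, Apc1638N/+ crypt array 3 and wild-type crypt arrays 2 and 3 lie between 9.37 and 11.81, whereas all arrays lie between 11.16 and 14.28 for 1460681_at.

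Between the diets the Ceacam1 probe sets differed by less than 1 on the log2 scale. As a description, they differed in NWD2 from NWD1 by −0.38 to −0.01 in crypts and by −0.60 to −0.35 in villi, and from Ain76A by −0.45 to −0.19 and by −0.63 to −0.27 (log2). Set beside these, the leading Ceacam10 probe set differed by −3.83, −2.65, −2.79 and −1.71.

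Other family members were mostly not measured. Of 11 listed genes, Ceacam18 alone had a probe set that passed the filter, and Ceacam9, Ceacam11, Ceacam12, Ceacam13, Ceacam14 and Ceacam15 had values on 9 arrays or fewer. Ceacam18 read 8.69, 8.99, 9.59 and 8.66 in Ain76A crypts, against 11.80, 11.99, 12.39 and 11.88 in villi. It was lower in crypts on NWD2 by −1.19 ± 0.37, on NWD1 by −2.64 ± 0.34, on Ain76A by −3.03 ± 0.34 and in wild-type mice by −2.73 ± 0.34 (log2 ± SE; limma adjusted p = 0.0246, 3.77e-07, 4.14e-09 and 1.1e-07). Apc1638N/+ and p21-/- crypts had too few values. As for Ceacam20, NWD2 had the narrowest gap, again untested, with crypts at 9.02, 10.29, 10.96 and 10.30 and villi at 11.10, 11.72 and 11.19.

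Genes of Ceacam signalling were given by a list of 13, of which 5 to 7 could be tested in a comparison. In the comparisons of NWD1 with Ain76A, of genotypes and of ages, 0 of them passed limma's test in either direction. The NWD2 contrasts were not tested. As a description, the 7 genes with enough values in crypts differed on NWD2 from Ain76A by a median of −0.14. They ran from −0.75 ± 0.26 for the kinase gene Syk to 0.71 ± 0.30 for Insr, with Ptpn11 at −0.53 ± 0.14 (log2 ± SE). Between crypts and villi all called genes were lower in crypts: 2 of 6 on NWD2, 2 of 6 on NWD1, 3 of 6 on Ain76A, 2 of 6 in Apc1638N/+, 0 of 6 in p21-/- and 2 of 6 in wild-type mice. Over all probe sets the shares lower in crypts were 6.79%, 24.6% and 30.2% on the diets and 21% (2545 of 12113), 22.1% and 28.0% in the genetic arm. Insr, the insulin receptor, was lower by −1.04 ± 0.33 on NWD2, −0.95 ± 0.30 on NWD1 and −1.44 ± 0.30 on Ain76A (log2 ± SE; limma adjusted p = 0.0255, 0.00935 and 1e-04). Ctnnb1, which encodes β-catenin, was lower by −0.54 ± 0.17, −0.76 ± 0.16 and −0.72 ± 0.16 on the same diets and by −0.54 ± 0.16 in Apc1638N/+ mice. The kinase gene Src was lower by −1.10 ± 0.35 in Apc1638N/+ and −0.91 ± 0.35 in wild-type mice. Egfr, the epidermal growth factor receptor, was lower by −0.83 ± 0.32 on Ain76A and −1.63 ± 0.32 in wild-type mice, and its tissue difference in p21-/- minus that in wild type was 1.74 ± 0.46 (limma adjusted p = 0.0411). The phosphatase genes Ptpn6 and Ptpn11 did not pass in any comparison that was tested.

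The genes whose levels ran most like Ceacam10 across its 35 measured arrays were found among 7344 genes. They were Cyba (Pearson r = 0.90), a subunit of NADPH oxidase, Txndc5 (0.77), a disulfide isomerase, Msmo1 (0.76), an enzyme of cholesterol synthesis, Pglyrp1 (0.74 over 32 arrays), a peptidoglycan recognition protein, and Tubb4b (0.71), a tubulin. These arrays share the split between the diet and genetic arms. They also include the NWD2 arrays, so a like order of diets follows in part from how the genes were picked. Cyba averaged 9.94 in NWD2 crypts, 11.29 in NWD1 crypts and 10.92 in Ain76A crypts, and 10.37, 11.61 and 10.82 in the villi of the same diets. Txndc5 averaged 11.52, 11.55 and 11.60 in those villi, so its likeness to Ceacam10 did not extend to the diets there.

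For Ceacam20 the most alike of 7239 genes were Pdlim2 (r = 0.97), Mtmr11 (0.96 over 39 arrays), Dnase1l1 (0.96 over 38), Krt20 (0.96) and Apol7a (0.96). Krt20 is a keratin of differentiated intestinal epithelium. These arrays share the split between crypts and villi. The NWD2 arrays are among them, so a like pattern over diets follows in part from how the genes were picked. Krt20 averaged 14.10 in NWD2 crypts and 15.25 in NWD2 villi, against 13.15 and 15.75 on Ain76A, a narrower gap on NWD2, as for Ceacam20, and likewise untested.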

How the data were processed

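Per the labels' protocols, biotinylated cRNA made from total RNA was hybridized. The deposited values are log2 expression per probe set and array, made by the authors with GCOS per the submitters' processing notes (version not given in the sources used here). Of all cells 55.3% were blank and stayed blank. The highest trimmed mean (2% cut at each end) exceeded the lowest by 1.46 times, above a limit of 1.2, so arrays were quantile-normalized on the 8350 probe sets measured on every array, with the rest placed by interpolation. Probe sets above their array's median on at least 3 arrays were kept (14919). Tests used limma 3.58.1 in R 4.3.3, a one-way model over 12 groups with a trend in the prior variance, for probe sets with at least 3 values in each group, Benjamini-Hochberg over all tested, called at an adjusted p under 0.05. The procedure was tested on simulated data. Promoter windows are RefSeq's (GRCm38.p6), aligned with Biopython 1.88.

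Members and lists were chosen with earlier results of these data known. Genes named beside the members are the tested family and signalling genes, Cdkn1a, and the 5 genes most correlated with each of Ceacam10 and Ceacam20 (a value on at least 80% of its arrays), with marker lists by their summary. Crypts and villi of equal number deviated together (correlation over 0.1) in 4 of 4 Ain76A and 3 of 3 NWD2 pairs, and were treated as paired there. In the other conditions 1 to 3 of 4 did, which does not show that those arrays were unpaired. Alternatives tried were the deposited scaling, other filters, a floor for blanks, the compared groups alone, 1 probe set per gene, covariates, the replicate block and leaving out arrays.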

Additional observations from a re-analysis of the deposited data

Results flagged for a closer look

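Among 95 groups of 4 values tested with Dixon's criterion, 4 held an outlying array, and chance gives about 1 in 20. Ceacam10 1417074_at stood at 9.75 on NWD2 crypt array 1, the others lying between 7.44 and 7.52. Ceacam1 1425538_x_at stood at 13.11 on NWD1 crypt array 1 (others 13.68 to 13.79), and Ceacam1 1460681_at at 11.74 on the same array (others 12.17 to 12.19). Ceacam20 1430383_at stood at 13.98 on wild-type villus array 2 (others 14.53 to 14.61).

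The crypt over villus difference of Ceacam1 1460681_at differed between 1-year Ain76A and 3-month wild-type mice by −1.41 on the log2 scale (interaction term in limma, adjusted p = 0.032), and age and study arm coincide in this comparison.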

How the results depend on the processing

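Ceacam10 stayed lower on NWD2 than on NWD1 and Ain76A in both tissues under every alternative that kept it. The log2 differences ran from −4.81 to −1.21 over its 2 probe sets. The stricter filter dropped both, which lay above the array median on only 15 of 35 and 14 of 36 measured arrays. As these contrasts chose the gene, this is a description. Counts of called members moved more than directions. Those for 1-year against 3-month mice and for crypt over villus on the diets include Ceacam10 where it had enough values. Its calls there count as no test. With only the compared groups fitted, 1-year Ain76A over 3-month wild type gave 2 calls in crypts, and crypt over villus gave 8 on NWD2, 10 on NWD1 and 8 on Ain76A. With the replicate block the numbers were 3 in 1-year crypts, 7 on NWD2, 10 on NWD1, 10 on Ain76A, 2 in Apc1638N/+ and 6 in p21-/- mice, and the block changed no other count by over 1.5 times except the tissue difference below. The numbers met the criterion for pairing crypts with villi only on Ain76A and NWD2. Arrays of equal number at 1 year and 3 months come from different mice. Elsewhere the block thus joins arrays without a known link. With 1 probe set per gene the counts were 0 in 1-year crypts, 1 in 1-year villi, that of Ceacam10, 2 in wild type and 1 each on NWD2, NWD1, Ain76A and in p21-/-. A low floor for blanks gave 3 on Ain76A and 2 in Apc1638N/+. The spike-in covariate gave 1 in 1-year villi and 1 in p21-/-. The score covariate gave 0 in 1-year crypts, a comparison whose arms have scores from different genes. Wild-type crypt arrays 2 and 4 left out, an alternative chosen after seeing the data, gave 1 in 1-year crypts.

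The tissue difference of 1-year Ain76A minus 3-month wild type, 1 call, had 0 with only the compared groups, 1 probe set per gene, the replicate block or the spike-in covariate. These alternatives for tissue differences were also chosen after seeing the data. Leaving out 1 array gave 1 to 5 calls in 1-year crypts, 3 to 5 in 1-year villi, 0 to 2 in p21-/- villi, 0 to 5 for crypt over villus on NWD2 (1 without crypt array 4 or villus array 2, 0 without villus array 3, 5 without villus array 1), 1 to 5 in Apc1638N/+ (5 without crypt array 4) and 0 to 1 for the tissue difference. Uncalled single values changed sign 34 times. The cause was not tested. Ceacam20 on NWD2 against Ain76A in villi shrank to −0.37 with the score covariate. Blanks limit Ceacam10 in the genetic arm.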
